A study of Mus musculus with 5 samples.

Results

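The 5 microRNA features coded M69, M147, M394, M165 and M11 gave a signal in undifferentiated cells and a higher one after 4 days of neural induction. They were named from among 406 microRNA features on the array and were chosen by measured values, the spot intensities of all 5 arrays. Each was above the spots with a B code on all 3 arrays of undifferentiated cells, and higher still on both arrays of induced cells. Those values therefore describe the members and carry no test of the change. No table at hand links these codes to microRNA names or probe sequences, so the members are given by code, without a sequence or a genomic position, and a role cannot be stated for any of them.

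The study followed microRNAs during neural differentiation of P19C6, a cloned subline of mouse P19 embryonal carcinoma cells, which are pluripotent and can form neural cells in culture. There were 2 arrays of cells kept for 4 days in N2B27, a serum-free medium in which the cells grow as aggregates in suspension, and 3 arrays of cells at 0 hour. The titles give no transgene and no further agent for either group. The titles number the library 2 on both 4 day arrays and 1 on all 0 hour arrays, so day and library cannot be told apart, and the spread between arrays may be technical only. MicroRNAs are short RNAs that guide Argonaute proteins to matching sites in messenger RNAs and lower their translation and stability. As a pluripotent cell takes a neural fate, microRNA families typical of the pluripotent state give way to others found in neural progenitors and neurons. A signal made by more cells of one kind cannot be told apart from one made by more RNA per cell, and the cell types could not be checked against marker microRNAs.

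Each labelled RNA was hybridised alone, with the dye Cy5, and every feature was printed as 3 adjacent spots. Intensities below are spot minus local background, on the scanner's linear scale, which ends at a fixed ceiling, averaged over the 3 spots. The floor of an array, the mean plus 2 SD of its spots with a B code, was 242 and 136 on the 4 day arrays and 461, 433 and 440 on the 0 hour arrays. The median microRNA feature had an intensity of 508 and 382 at 4 days, against 493, 652 and 493 at 0 hour. Over the 191 microRNA features above the floor on all arrays, the median ratio of 4 day to 0 hour means was 1.27 before any scaling. Features with a P code, whose meaning is not given, were brighter on both 4 day arrays in 7 of 8 cases, with a median ratio of 1.71, and the 4 B-coded features were dimmer in all 4 cases, with a median ratio of 0.464. The part of this difference in the members' values was not tested.

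The label of the group restates the rule, so its intensities could not have gone against it. The 5 members had 29.8 to 477 times the floor intensity at 4 days and 1.75 to 31.5 times at 0 hour. The floor was itself lower on the 4 day arrays, which raises these multiples at 4 days. No member spot was marked to be ignored. The rule had 2 conditions, a signal over the floor on each 0 hour array and a brighter one on both 4 day arrays. Both were met by 87 of 406 features (21.4%), so the 5 members are a named subset of those. Among the 195 features that met the first condition, the share that also met the second was 44.6%. By fitted difference the members were the 1st, 3rd, 4th, 5th and 6th of the 87. Among all 323 tested features (above the floor on at least 2 arrays) they were the 1st, 6th, 7th, 8th and 13th. The feature in 2nd place of the 87, M183, was not a member, and at 0 hour its dimmest array was 1.03 times the floor. After M147, the member with the smallest difference, the next of the 87 was M110, with a log2 difference of 1.63.

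Near the edges of the rule, M393 had its dimmest 0 hour array at 1.01 times the floor and met the rule, while M102 had it at 0.991 times and did not. M330 met the second condition with its dimmer 4 day array 1.01 times its brightest 0 hour array, and M208 missed it at 0.990 times. No member was close to either edge. Over the 5 members the dimmest 0 hour array was M165 on replicate 3, at 1.75 times the floor, and the narrowest gap between groups was that of M147, whose dimmer 4 day array was 3.34 times its brightest 0 hour array.

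**Figure D1:**
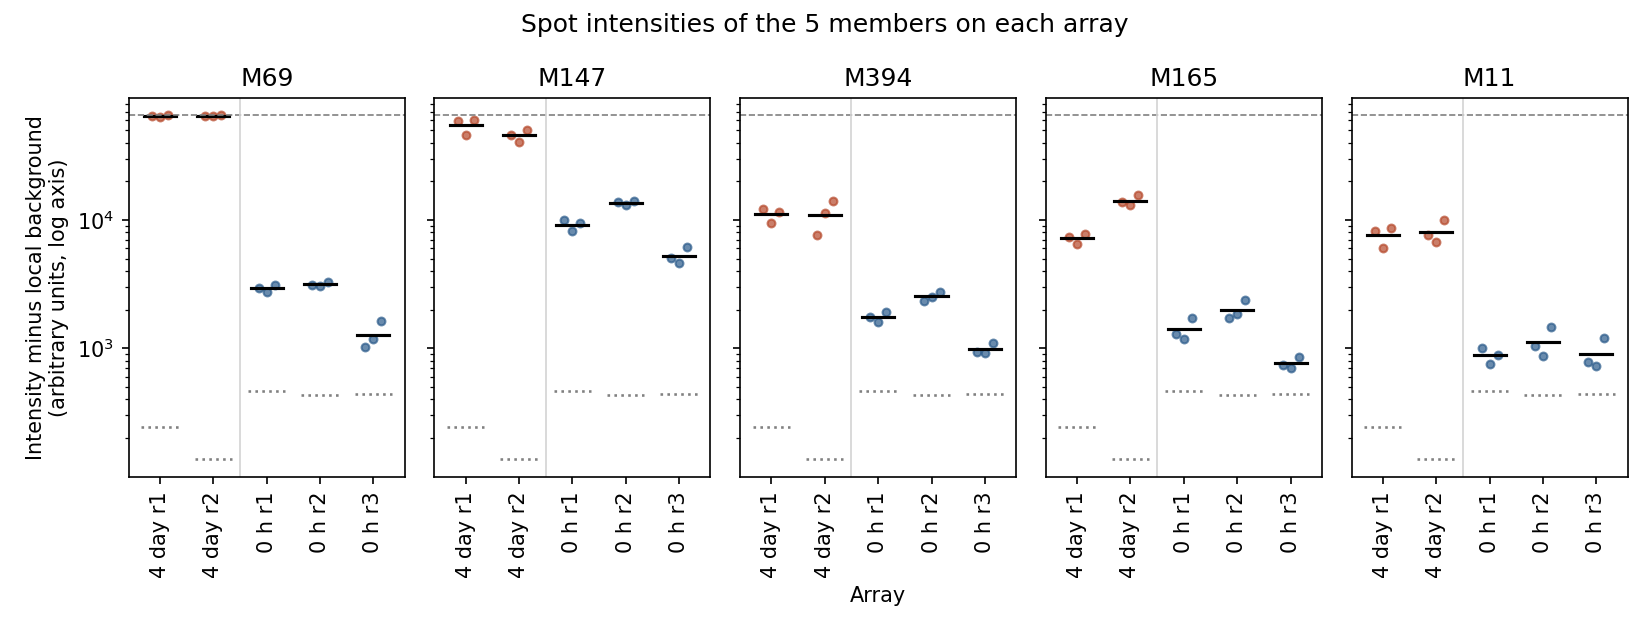
Intensity minus local background (log axis) of each spot of the 5 members on each array, 4 day arrays in red and 0 hour arrays in blue, with the mean of 3 spots as a black bar, the floor of the array as a dotted line and the scanner ceiling as a dashed line. The 4 day spots of every member lie above all of its 0 hour spots, and those of M69 lie at the ceiling (1 spot per array) or just under it.

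M69 went to the top of the scanner range. Its intensity was 64806 and 64914 on the 4 day arrays, against 2929, 3157 and 1276 on the 0 hour arrays. It was the brightest of the 406 microRNA features on both 4 day arrays, while at 0 hour it ranked between 43rd and 81st. On each 4 day array the last of its 3 spots was at the scanner ceiling. The pixel SD of those spots was 0, and for all 6 spots of M69 at 4 days the mean plus 1 pixel SD reached the ceiling, so the other spots may also hold clipped pixels. Its spots varied by 1.19% and 0.836% at 4 days (coefficient of variation), whereas the median feature varied by 12.6% and 12.8% on these arrays.

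The ceiling limits the measured change of M69, whose size also depends on the scaling. Under quantile normalization the fold was 21.4, with a log2 intensity of 15.74 on both 4 day arrays and 11.32 ± 0.63 at 0 hour (SD, n = 3). The fitted log2 difference was 4.42 (SE 0.36), in which the clipped 4 day arrays add almost no spread. With cyclic loess the fold was 15.2 and with no normalization it was 31.4, so 21.4 is no bound across scalings. Its 0 hour arrays differed by 2.47-fold between the brightest and the dimmest. Runs that the groups share were read from a common part of the run name in the file headers. Within these runs the 4 day intensity before any scaling was 22.1 times (replicates 1) and 20.6 times (replicates 2) that at 0 hour. After quantile normalization the same differences were 3.82 and 4.37 on the log2 scale, so for M69 scaling moved the runs apart.

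M147 had the smallest fold difference of the 5 and, as the brightest of them at 0 hour, the least room below the scanner ceiling. It had intensities of 54792 and 45578 at 4 days, against 9202, 13646 and 5261 at 0 hour. The groups did not overlap, and its rank moved to 3rd and 6th at 4 days, against 20th to 25th at 0 hour. None of its spots was at the ceiling, although for 2 of its 6 spots at 4 days the mean plus 2 pixel SD passed it. Normalized log2 intensity was 15.20 ± 0.21 at 4 days (SD, n = 2) and 13.22 ± 0.24 at 0 hour (SD, n = 3), a difference of 1.98 (SE 0.24), or 3.95-fold. The ratio within the run of replicates 1 was 5.95 and in that of replicates 2 it was 3.34, before any scaling. After quantile normalization the same differences were 1.88 and 1.85 on the log2 scale, so the 2 runs were closer once the arrays had been scaled.

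M394 was nearly the same on both 4 day arrays, at 11065 and 11003, against 1759, 2533 and 981 at 0 hour. The 3 spots behind the second of these values ran from 7582 to 14014 (coefficient of variation 29.4%), so the close match of the array means is tighter than the spots themselves. The normalized log2 intensity was 13.17 ± 0.18 at 4 days (SD, n = 2) and 10.80 ± 0.48 at 0 hour (SD, n = 3), a difference of 2.37 (SE 0.31), or 5.17-fold. With cyclic loess in place of quantile normalization it was 3.41-fold. Replicate 3 was the dimmest 0 hour array, at 0.457 times the mean of the other two.

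M165 was the member whose 4 day arrays differed most. Its intensity was 7233 on replicate 1 and 14182 on replicate 2 at 4 days, a ratio of 1.96, against 1405, 1982 and 771 at 0 hour. Over the 191 features above the floor on all arrays, the median ratio between the brighter and the dimmer 4 day array was 1.20 and the 95th percentile was 2.21. The 3 spots of M165 were alike on each of these arrays, from 6546 to 7771 on replicate 1 and from 13051 to 15748 on replicate 2, so the gap was between arrays and not between spots. The normalized log2 intensity was 13.06 ± 0.60 at 4 days (SD, n = 2) and 10.37 ± 0.50 at 0 hour (SD, n = 3). This was a difference of 2.69 (SE 0.37), or 6.45-fold, and 4.17-fold with cyclic loess. After quantile normalization the log2 difference was 1.87 in the run of replicates 1 and 2.94 in that of replicates 2. Before any scaling the ratios within these runs were 5.15 and 7.16.

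M11 had steady arrays in both groups before any scaling. Its intensity was 7634 and 8099 at 4 days, against 884, 1126 and 906 at 0 hour. The arrays of a group differed by 1.06-fold at 4 days and 1.27-fold at 0 hour, where the other members differed by 2.47 to 2.59-fold. After quantile normalization the 0 hour SD of M11, 0.27, was not below the 0.24 of M147. At 0 hour M11 had only 1.92 to 2.60 times the floor intensity. Its spots were less even, with a coefficient of variation of 18.4 to 21.6% at 4 days and 15.0 to 28.2% at 0 hour. The normalized log2 intensity was 12.64 ± 0.09 at 4 days (SD, n = 2) and 9.86 ± 0.27 at 0 hour (SD, n = 3). The difference was 2.78 (SE 0.24), or 6.86-fold, and it was 2.71 in the run of replicates 1 and 3.03 in that of replicates 2. Before any scaling the ratios within these runs were 8.64 and 7.19. Its rank moved furthest of the 5, to 29th and 31st at 4 days, against 103rd to 129th at 0 hour.

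**Figure D2:**
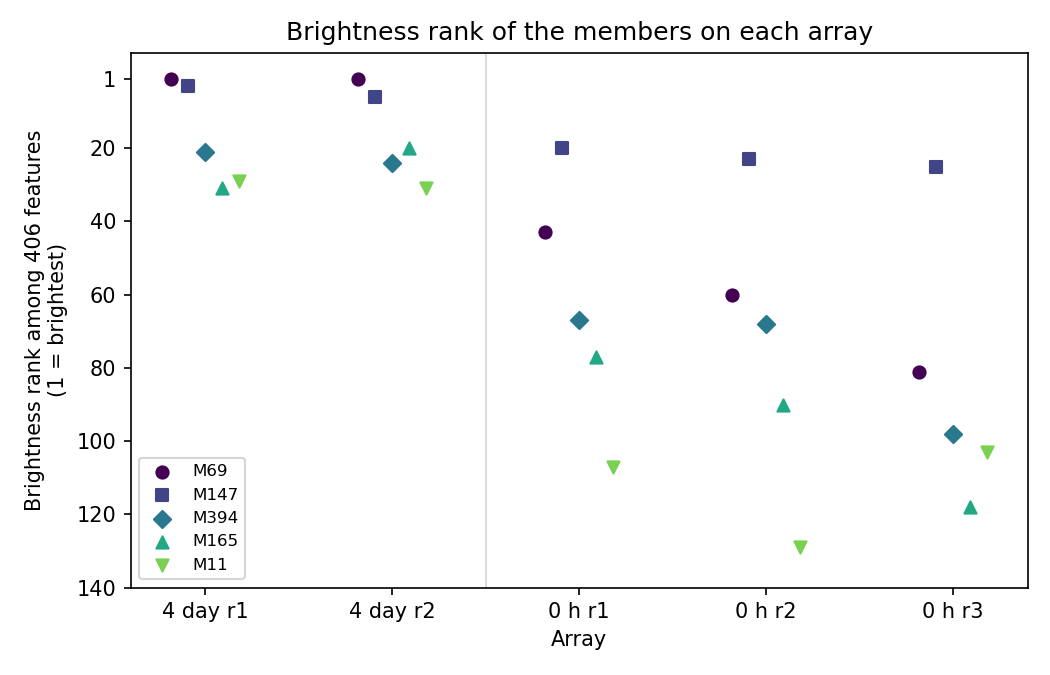
Brightness rank of the members among the 406 microRNA features on each array (1 is the brightest, at the top), 4 day arrays on the left and 0 hour arrays on the right. All ranks at 4 days lie between 1 and 31, and those at 0 hour between 20 and 129. Probes can differ in brightness at the same amount of RNA, so ranks compare a feature with itself across arrays and not amounts between features.

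One array of undifferentiated cells stood apart for 4 members. On replicate 3 at 0 hour, M69, M147, M394 and M165 had 0.419 to 0.461 times the mean intensity of replicates 1 and 2, whereas M11 had 0.901 times. The 191 features above the floor on all arrays had a median of 0.733 times on that array, and their 5th percentile was 0.469 times, so these 4 members were among its lowest features by that ratio. Quantile normalization narrowed the gap without closing it, since M69, M147, M394 and M165 were still lowest on replicate 3 in log2 units, at 10.67, 12.99, 10.24 and 9.80. Without replicate 3 the log2 differences between 4 day and 0 hour arrays were 4.10 for M69, 1.90 for M147, 2.08 for M394 and 2.40 for M165, and that of M11 was 2.89.

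The members were then read beside the whole array. Their median log2 difference was 2.69, while the median over the 323 tested features (above the floor on at least 2 arrays) was 0.15. All 5 members passed an adjusted p of 0.05 as higher at 4 days (limma, two-sided, Benjamini-Hochberg over the 323 features), as did 26.6% of the tested features, and 44.9% passed in either direction. Since the same contrast had chosen the members, nothing is read from their count. A fitted rise of 4-fold or more was found for 4 of the 5 members and for 3.72% of the tested features, and this too follows from the choice of the members.

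**Figure D3:**
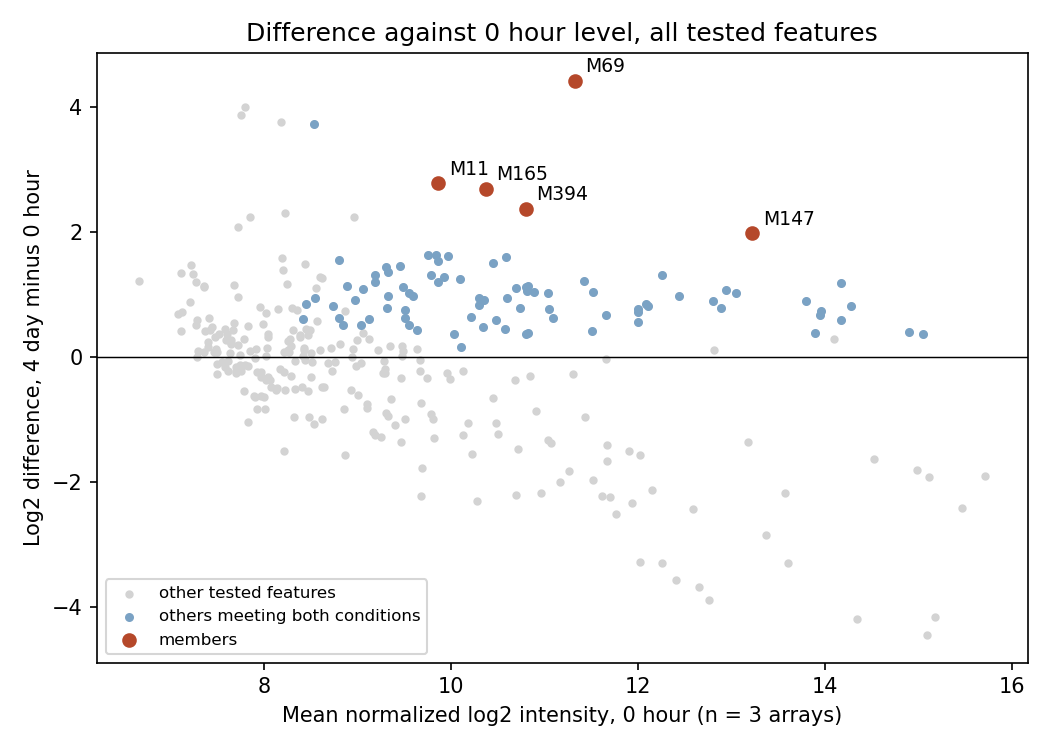
Log2 difference, 4 day minus 0 hour, against the mean normalized log2 intensity at 0 hour (n = 3 arrays) for the 323 tested features, with the members in red, the other features that met both conditions in blue and the rest in grey. The members lie between 1.98 and 4.42, at 0 hour levels from 9.86 to 13.22, and the value of M69 is limited by the scanner ceiling.

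How large the members' differences were depended on the scaling between arrays. Their direction, which the rule had fixed on unscaled values, stayed the same in the settings tried. Under 6 scalings the median of the members ran from 2.06 with cyclic loess to 3.21 with no normalization. The median of all tested features ran from -0.63 with scaling to the P-coded spots to 0.21 with no normalization, so each difference is relative to the scaling. M69 had the largest difference of the 5 and M147 the smallest in all 18 alternatives. The place of M147 was partly set by the scanner ceiling. Its log2 intensity was already 13.22 at 0 hour, and M69, at the top of the range at 4 days, had 15.74. M147 therefore had less room to rise than the dimmer members, and its recurring last place says little about the underlying change. M11, M165 and M394 lay within 0.41 of each other with an SE of 0.24 to 0.37 each, and M11, M165 and M394 changed places among themselves in 4 of the 18 alternatives, so no order is given among these 3.

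**Figure D4:**
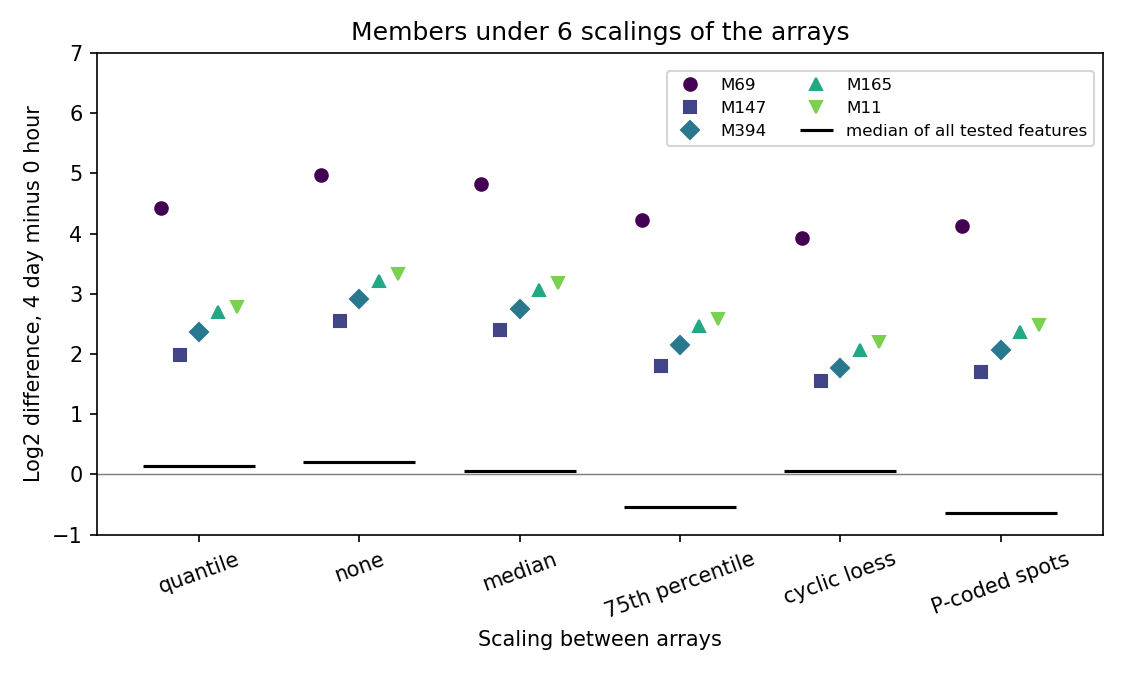
Log2 difference, 4 day minus 0 hour, of each member under 6 scalings of the arrays, with the median of all 323 tested features as a black bar. Every member lies above the bar under each scaling, from 1.55 (M147, cyclic loess) to 4.97 (M69, no normalization).

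The members did not share one block of the slide. M147 and M11 were printed in one of the 4 blocks of spots, M69 and M165 in another and M394 in one more. M69, M165 and M394 were each in columns 1 to 3 of their block and M11 was in row 1, so all members but M147 lay at a block edge. A total of 26 microRNA features touched a member, and in 6 of these (23.1%) each 4 day array was brighter than all 0 hour arrays, as in 25.4% of all 406 features. Of the 5 features that touched M69, the brightest was M45, with 1420 and 2451 at 4 days, against 591, 867 and 663 at 0 hour. Beside the last spot of M165 lay M169, with 5795 and 17652 at 4 days, against 38537, 56606 and 27192 at 0 hour. Between the groups M165 and M169 went in opposite directions, which for M165 was set by the rule. Within each group their arrays had the same order. Both were higher on replicate 2 than on replicate 1 at 4 days. At 0 hour M165 had 1405, 1982 and 771, so replicate 2 was the brightest and replicate 3 the dimmest for both. That 0 hour order was not particular to the pair. M69, M147 and M394 had it as well, though M11 did not, and the P-coded spots averaged 16020, 26937 and 13518. At 4 days the P-coded spots had the opposite order to the pair, with 34030 on replicate 1 and 28888 on replicate 2. A link between the signals of M165 and M169 was not tested. Among the 10 features with a code number next to that of a member, 1 was brighter on both 4 day arrays, namely M393 beside M394. It lay at 1704 and 1356 at 4 days, against 883, 833 and 444 at 0 hour.

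Outside the members, the features with the most similar pattern over the 5 arrays were M183 and M198. Likeness was the Euclidean distance from the mean pattern of the members, in log2 units after each feature's own mean was subtracted, among 186 other features above the floor on all 5 arrays. The distance was 1.23 for M183 and 1.38 for M198, with a median of 3.03 over the 186 features. The members themselves lay at 0.63 (M394) to 1.76 (M69), so M69 was less like the mean pattern than either. M183 had intensities of 5076 and 7544 at 4 days, against 475, 645 and 529 at 0 hour. M198 had 3393 and 3985 at 4 days, against 833, 1503 and 661 at 0 hour.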

How the data were processed

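Total RNA was used and the label was added in a PCR with a Cy5-bearing primer, per the labels. The authors read a single Cy5 image of each array with a fixed circle, per the file headers, with neither background subtraction nor crosstalk correction, and deposited the intensity of each spot and of its local background. The deposited value table holds an intensity per spot equal to spot minus background, to within 5e-06. The program used for image analysis is not stated in those sources.

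Intensities of the 5 arrays were corrected with normexp (offset 50), put on log2, and quantile normalized over the 1218 microRNA spots. Spots marked to be ignored were left out (3 microRNA spots of replicate 2 at 4 days), and each feature is the mean of its 3 spots. The meaning of the B code is not given. Features above the floor on at least 2 arrays were fitted with limma 3.58.1 in R 4.3.3 (lmFit, eBayes, 3 residual degrees of freedom). The fit was tested on simulated data. Figures used matplotlib 3.10.9. Run names in the file headers have a common part for replicates 1 of the groups, and another for replicates 2, which is read here as a shared run. Deviations from the group means correlated at 0.38 and 0.15 for these pairs, and at 0.25 for replicate 2 at 4 days with the third 0 hour array. With 2 arrays at 4 days, the deviations of replicate 2 are those of replicate 1 with the sign changed. The correlations are therefore not separate, and the pairing by run is not established from the values. On almost all spots of replicate 2 at 4 days and replicate 3 at 0 hour the local background is recorded as 0.

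The members, and the lists and rules used with them, were chosen with earlier results of these data known. The named features are the 5 members, the 2 features most like their mean pattern, those at the edges of the rule, and those with adjacent spots or codes, given as counts and ranges. M110, M45 and M169 were chosen after their values were seen. With 2 and 3 arrays, the number of arrays limits the precision. All arrays of a group also share a library number, so the SE and adjusted p may rest on technical spread only. Alternatives covered background correction, scaling, filter, spot summary, saturated spots, the deposited table, a replicate block and the removal of each array in turn.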

Additional observations from a re-analysis of the deposited data

How the results depend on the processing

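The 5 members were higher at 4 days, by 2-fold or more, in all 90 values from 18 alternatives. Of these alternatives, scaling to the P-coded spots was chosen after seeing the data. The rule had fixed the direction, so its recurrence is no support for the rise. The 90 values are not all separate, because the other filters left the members' differences unchanged. The deposited table gave the same differences as spot minus local background. The members' median log2 difference of 2.69 became 3.21 with no normalization between arrays and 2.06 with cyclic loess. It ran from 2.40 to 2.82 with 1 array left out. In 12 of the 90 values a member moved by more than its SD between arrays, all of them under another scaling. The 145 features called overall (44.9% of those tested) became 73 to 160 with 1 array left out, and the 86 called higher became 37 to 93. The lowest counts, 73 and 37, came without replicate 2 at 4 days, followed by 90 and 46 without replicate 1, where a single 4 day array stood for its group and was assumed to vary like the 0 hour arrays. With scaling to the P-coded spots 49 features were called higher. In the fit with a replicate block, 173 features were called, 99 of them higher, and the members' median was 2.41. Shares of higher calls also moved with the scaling, with 102 of 150 under no normalization, 110 of 185 under median scaling, 63 of 186 under the 75th percentile, 59 of 124 under cyclic loess and 49 of 200 with the P-coded spots, against 86 of 145 in the main setting. The scanner ceiling limits M69 in every setting. With the spots at the ceiling left out its log2 difference was 4.45, against 4.42 in the main setting. The members' median was then 2.70, which is the value of M165 and cannot show an effect on M69.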

Other observations

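The 3 spots of a feature were not interchangeable. Over the 5 members and 5 arrays, the last printed spot was the brightest in 22 of 25 cases and the middle spot was the dimmest in 20 of 25. Over all microRNA features and arrays the last spot was the brightest in 44.9% of 2030 cases and the middle spot the dimmest in 53.0%. For M69 and M165 the last spot was the brightest on all 5 arrays, 4 day and 0 hour alike.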
